A study of Mus musculus with 22 samples.

Results

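The 10 genes described here make up the core of the circadian clock and its output in mice: Per1, Per2, Per3, Cry1, Cry2, Arntl, Clock, Dbp, Nr1d1 and Nr1d2. They were selected by symbol from the 24421 genes of the count tables, and each symbol matched 1 gene. RNA of the right brain hemisphere was sequenced from 22 mice of the strain C57BL/6JOlaHsd, spelled C57B6/J OlaHsd in the labels, with 7 dominant males, 7 submissive males, 4 dominant females and 4 submissive females. The labels give no genotype beyond the strain and no treatment for any group, and all mice were young adults. Rank was assigned in the tube test, in which the mouse that pushes its opponent out of a narrow tube wins. Each replicate number stands for 1 cage, from which 1 dominant and 1 submissive mouse were sampled. According to the study's methods, both mice of a cage were killed at the same time, in the morning, under a light-dark cycle of equal phases with light from the early morning. The hour at which each cage was sampled is not given in the sources used here, so a difference between cages cannot be assigned to an hour, while a difference between cage mates is one at a shared hour. Cage mates also share their housing and the handling of that day, and these cannot be told apart from the time of sampling. Female replicates 3 and 4 carry group names in place of cage numbers in their library names. Per the study's methods, some females of intermediate rank were regrouped by 4 and took the tube test again 1 week later. Whether replicates 3 and 4 come from those groups is not given in the sources used here. The library names of the males and of the females begin with different prefixes, whose meaning is not given in the sources used here, so sex and whatever the prefixes mark cannot be told apart.

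The mammalian clock is a feedback loop of transcription. The proteins of Clock and Arntl (also called Bmal1) bind E-boxes as a pair and switch on the Per and Cry genes, whose proteins then enter the nucleus and block that activation. Nr1d1 and Nr1d2 encode the REV-ERB repressors, which act on Arntl, and Dbp is a direct output gene whose protein binds D-boxes. The loop runs in most cells of the body and is set by the suprachiasmatic nucleus, a small nucleus of the hypothalamus that receives light from the retina. Per1 and Per2 are in addition induced within hours by light, by glucocorticoids and by neuronal activity.

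The regions just before the start of transcription are shown for Per1 and Per3, which differed between male cages, and for Cry1, which did not pass that test and whose window holds the same E-box as that of Per1. Sequences and starts are those of RefSeq (GRCm38.p6), in which 9 of the 10 genes matched with 13 windows of 250 bases. Capitals mark the motifs, which were searched on both strands as E-box CACGTG, as E-prime box CACGTT, as D-box TTANGTAA and as cyclic AMP response element TGACGTCA; no match overlapped another.
Per1, chr11:69098699-69098948, plus strand: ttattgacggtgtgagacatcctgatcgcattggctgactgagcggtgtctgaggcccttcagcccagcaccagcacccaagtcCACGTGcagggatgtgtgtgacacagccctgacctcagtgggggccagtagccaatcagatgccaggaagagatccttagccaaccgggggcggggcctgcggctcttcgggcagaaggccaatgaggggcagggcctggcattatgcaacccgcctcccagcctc
Per3, chr4:151044666-151044915, minus strand: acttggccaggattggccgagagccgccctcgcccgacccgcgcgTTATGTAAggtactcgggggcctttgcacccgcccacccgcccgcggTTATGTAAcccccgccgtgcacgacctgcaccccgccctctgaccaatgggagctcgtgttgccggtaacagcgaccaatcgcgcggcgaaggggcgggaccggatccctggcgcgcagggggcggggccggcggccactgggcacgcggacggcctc
Cry1, chr10:85185055-85185304, minus strand: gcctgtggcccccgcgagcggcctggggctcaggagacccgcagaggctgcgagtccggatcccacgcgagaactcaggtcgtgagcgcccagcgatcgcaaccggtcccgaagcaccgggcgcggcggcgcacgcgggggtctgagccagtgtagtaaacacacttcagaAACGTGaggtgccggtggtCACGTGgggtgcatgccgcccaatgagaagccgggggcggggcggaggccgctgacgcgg
The E-box of Per1 began 166 bases before the start and that of Cry1 60 bases before it, and 6.021% of the 32851 windows of that length in the table held one. The D-boxes of Per3 began 205 and 158 bases before the start, against 2.061% of windows with a D-box. Cry1 also held an E-prime box 79 bases before its start, as did Cry2 at 166 and Nr1d1 at 28, against 3.848% of windows. The windows of Arntl, Clock, Dbp and Nr1d2 held none of the 4 motifs, and the cyclic AMP response element, present in 1.546% of windows, was in none of the 13. Per2 (chr1:91415982-91459328 in mm10, minus strand) is named only.

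All 10 genes were measured well above the filter on low counts in every library, with 229 to 4259 counted reads per gene. Between 12403900 and 16488800 reads per library fell on genes. Levels are given in CPM, that is, counts divided by the depth of their library after TMM scaling across the 22 libraries, and levels of different genes are compared only per kilobase of exon. In the 14 males, Nr1d2 was highest at 42.2 ± 3.31 CPM per kilobase (SD), followed by Clock at 26.9 ± 1.21, Cry2 at 22.7 ± 1.05, Dbp at 18.5 ± 1.32 and Arntl at 17.8 ± 0.78. Nr1d1 at 9.80 ± 0.71, Cry1 at 8.84 ± 1.03, Per3 at 7.999 ± 1.28, Per1 at 6.13 ± 1.13 and Per2 at 3.80 ± 0.88 CPM per kilobase were the lower members. Neighbours in this order whose means lay less than the sum of their SDs apart were Dbp and Arntl, and each pair from Nr1d1 to Per1; the other neighbours lay further apart. In the 8 females the order was the same but for Dbp, which with 26.9 ± 3.16 CPM per kilobase stood beside Clock with 25.9 ± 0.57. Dbp shares 539 of its 1678 exon bases with Sphk2 on the opposite strand, and Cry2 shares 149 of 4001 with D930015M05Rik; the strand setting of the counting is not given in the sources used here, so these levels are uncertain.

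Levels between the sexes are set side by side without a test, because sex and the prefix of the library names coincide. Dbp had 30.96 ± 2.21 CPM (SD, n = 14) in males and 45.2 ± 5.30 CPM (SD, n = 8) in females. Every female exceeded every male in Dbp, with 36.9 CPM as the lowest female and 34.4 CPM as the highest male. Of the 15233 genes tested over all mice, 4.03% were higher in every female than in every male and 6.11% did not overlap between the sexes in either direction, and Dbp was the 1 member among them. The summed neuron markers also stood apart between the sexes, at 2692 to 3126 CPM in males and 3346 to 3560 CPM in females; their part in the difference of Dbp was not tested. Per3 lay the other way, with 48.4 ± 7.73 CPM in males and 36.9 ± 2.99 CPM in females. Cry1 had 26.7 ± 3.10 and 31.2 ± 2.58 CPM, and Per2 22.2 ± 5.15 and 26.3 ± 4.21 CPM. Arntl, the partner of Clock, had 51.8 ± 2.26 CPM in males and 50.7 ± 1.90 CPM in females.

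The label of the tissue was compared with marker genes. Markers of neurons (3 of 3), astrocytes (3 of 3), oligodendrocytes (3 of 3) and microglia (3 of 3) were detected in each library. Of the 6 markers of the suprachiasmatic nucleus, at least 4 were detected in each library and their summed level was 31.4 to 46.3 CPM, but Nms, which is largely confined to that nucleus, had 0 counts in 5 libraries. Vip made up most of that sum, with 23.8 to 37.2 CPM. Detected here means at least 1 count, and Prok2 had at most 6 counts in a library and Six6 at most 9. The hemisphere holds that nucleus as a minute part, so the clock genes were read here as an average over the brain, in which fewer cells of a type and less RNA per cell cannot be told apart. Dominant male 1 had 0 counts of the cerebellar gene Pcp2, which allows up to 0.213 CPM, against 20.0 to 46.4 CPM in the other males, and its 5 cerebellar markers summed to 19.4 CPM against 198.3 CPM in the next lowest male.

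Whether mice of a cage were closer to each other than to mice of other cages was tested first, with rank held fixed. In males the 3 Period genes differed between cages and the other 7 members did not pass the test. Of the 14737 genes tested, 868 (5.89%) were called at an adjusted p under 0.05 in edgeR's quasi-likelihood F test with Benjamini-Hochberg adjustment, and of the 10 members 3 were called. The Period proteins are the part of the loop that accumulates and then blocks Clock and Arntl.

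Per3, whose product is the least required of the Period proteins for rhythm, had the clearest cage difference (F = 13.7, adjusted p = 0.00495 in the edgeR test). Its cage means in males were 54.6, 54.1, 58.1, 50.1, 39.0, 40.1 and 42.7 CPM for replicates 1 to 7, a 1.49-fold range. Dominant males had 35.4 CPM at the lowest, 52.3 at the median and 59.1 at the highest, and submissive males 42.2, 47.7 and 57.1 CPM. The 8 mice of replicates 1 to 4 lay between 47.7 and 59.1 CPM and the 6 mice of replicates 5 to 7 between 35.4 and 43.3 CPM, without overlap.

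Per2, a core repressor of the loop, ranged more widely between cages (F = 10.9, adjusted p = 0.00991 in the same edgeR test). Its cage means were 20.4, 30.5, 26.9, 23.0, 17.9, 17.4 and 18.9 CPM, a 1.75-fold range. Dominant males had 16.0, 19.1 and 30.4 CPM as lowest, median and highest, and submissive males 16.6, 21.2 and 30.8 CPM. In replicate 2 the cage mates were nearly equal, with 30.4 CPM in the dominant and 30.7 CPM in the submissive male, whereas in replicate 3 they had 23.1 and 30.8 CPM.

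Per1, the member with the fastest response to light and to activity, passed by a narrow margin (F = 7.11, adjusted p = 0.0345 in the same edgeR test). Its cage means were 27.9, 33.3, 35.3, 32.5, 26.1, 22.2 and 24.1 CPM, a 1.59-fold range. Dominant males had 19.6, 29.98 and 38.095 CPM as lowest, median and highest, and submissive males 22.1, 28.6 and 33.1 CPM. For the 3 Period genes and for Clock, each cage mean of replicates 1 to 4 was above each of replicates 5 to 7, as for 17.8% of all genes tested, and for Dbp each was below, as for 16.6% of all genes tested. Within cages the mean absolute difference between mates was 0.18 for Per1, 0.20 for Per2 and 0.12 for Per3 on the log2 CPM scale, against an SD of the cage means of 0.25, 0.31 and 0.23.

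**Figure D1:**
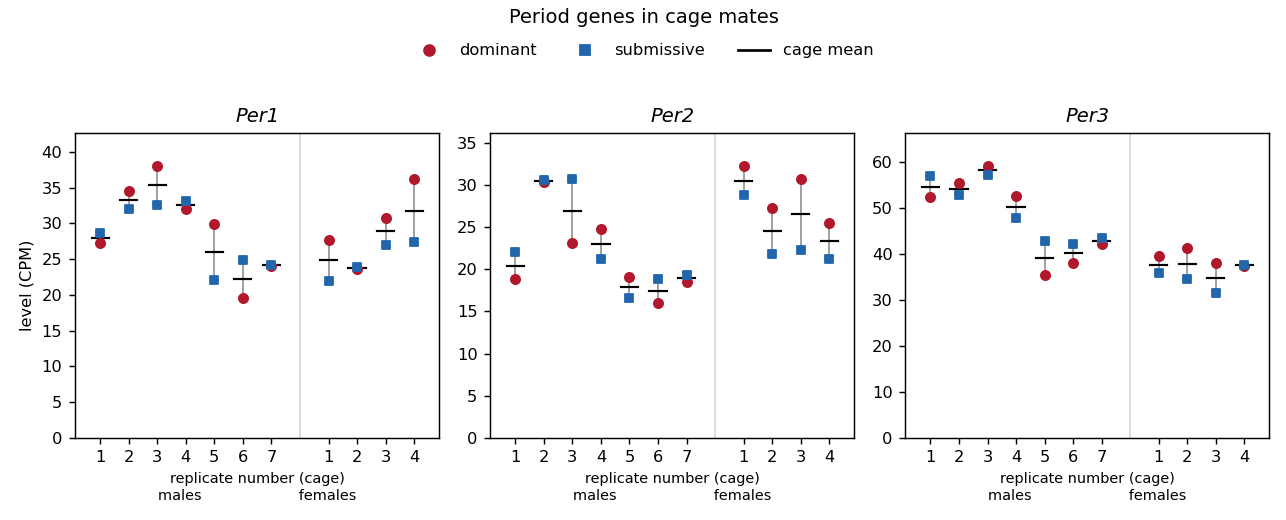
Levels of Per1, Per2 and Per3 in CPM (vertical axes from 0) for each mouse, by replicate number, with 7 male cages on the left and 4 female cages on the right of each panel; circles are dominant mice, squares submissive mice and black bars cage means. In males the cage means of replicates 1 to 4 lie above those of replicates 5 to 7 in all 3 panels; some cage mates lie far apart, such as those of replicate 5 for Per1 and of replicate 3 for Per2.

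Replicates 1 to 4 and 5 to 7 are not separated by anything the labels state, and the split was known from earlier results of these data. Of the genes tested in males, 8.74% did not overlap between these sets of mice, and of the members Per3 alone did not. Per1 had 32.3 ± 3.36 CPM (SD, n = 8) in replicates 1 to 4 and 24.1 ± 3.45 CPM (SD, n = 6) in replicates 5 to 7, and Per2 25.2 ± 4.76 and 18.1 ± 1.43 CPM. Counted reads per library moved with this split, from 12403900 to 14380000 reads in replicates 1 to 4 and from 14166500 to 15805200 reads in replicates 5 to 7; their part in the result was not tested. Within replicates 1 to 4 alone, 0 members were called by edgeR, 2 at an unadjusted p under 0.05, and 2 of 14769 genes were called at all. There, 453 genes in all had an unadjusted p under 0.05. Within replicates 5 to 7 alone, 0 members were called by edgeR, 0 at an unadjusted p under 0.05, and 0 of 14825 genes were called. There, 673 genes in all had an unadjusted p under 0.05. Both sets leave few cages and few degrees of freedom. Without dominant male 1 the same 3 members were called, among 1778 (12%) of 14787 genes. At an unadjusted p under 0.05 there were then 5 members, against 27.7% of all genes, where with that library there were 3 members, against 22.3%. The 2 that joined were Cry1, with F = 3.57 against 1.198 with the library (adjusted p = 0.106 in the edgeR test), and Nr1d2, with F = 3.54 against 1.90 (adjusted p = 0.108 in the edgeR test). Without replicate 2 only Per3 was called, with adjusted p = 0.0897 for Per2 and 0.0741 for Per1 in the edgeR test, and Per1 was also lost without replicate 3, 6 or 7. The call of Per1 was lost as well, with F = 6.02 and adjusted p = 0.0652 in the edgeR test, once each library was corrected for its exon length trend. All called genes then fell from 868 to 536 of 14737.

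The remaining 7 members did not pass the cage test in males. Arntl was the flattest, with cage means from 50.4 to 52.5 CPM, a 1.04-fold range (F = 0.144, adjusted p = 0.992 in the edgeR test), and single males from 46.5 to 54.8 CPM. Clock ranged 1.102-fold between cages, from 250.6 to 276.1 CPM, and Cry2 1.14-fold, from 83.9 to 95.6 CPM. Cry1, the cryptochrome that holds the loop in repression longest, ranged 1.203-fold. Its lowest value, 18.6 CPM, was that of dominant male 1, whose cage mate had 30.2 CPM. Dbp ranged 1.197-fold, from 28.2 to 33.8 CPM, Nr1d1 1.199-fold and Nr1d2 1.16-fold. Dbp ran opposite to the Period genes over the split of the cages, with 29.8 ± 1.82 CPM (SD, n = 8) in replicates 1 to 4 and 32.6 ± 1.66 CPM (SD, n = 6) in replicates 5 to 7, and the 2 sets overlapped. The adjusted p of these 7 genes lay between 0.377 for Cry2 and 0.992 for Arntl.

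**Figure D2:**
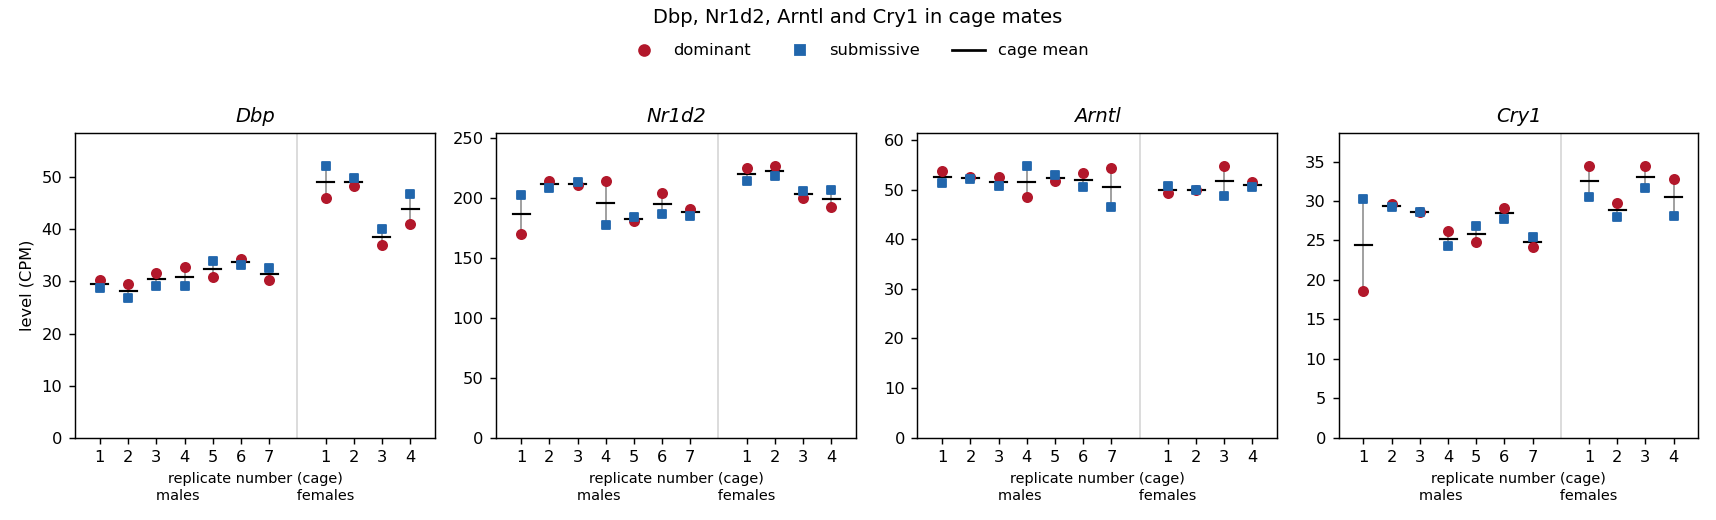
Levels of Dbp, Nr1d2, Arntl and Cry1 in CPM (vertical axes from 0) for each mouse by replicate number, males on the left and females on the right of each panel; circles are dominant mice, squares submissive mice and black bars cage means. Arntl stays between 46.5 and 54.8 CPM in all 22 mice, and Dbp is higher in every female than in every male, as were 4.03% of all genes tested.

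The share of the spread of log2 CPM that cage took up is given as a description without a test. In males it was 90.6% for Per3, 85.7% for Per2 and 80.6% for Per1, against a median of 59.0% over all genes tested. Cry2 with 72.8%, Dbp with 63.8% and Clock with 60.4% also exceeded that median, and Arntl had 10.3%. Rank took up 0.7% for Per1, 1.5% for Per2 and 1.1% for Per3, against a median of 2.19% over all genes tested. The medians of all genes are given as the reference for these shares. Cry1 rose from 39.8% to 87.0% when replicate 1 was left out. Leaving out 1 cage gave 38.4% to 77.1% for Clock, 50.6% to 71.0% for Dbp, 58.96% to 75.8% for Cry2 and 5.9% to 14.2% for Arntl.

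**Figure D3:**
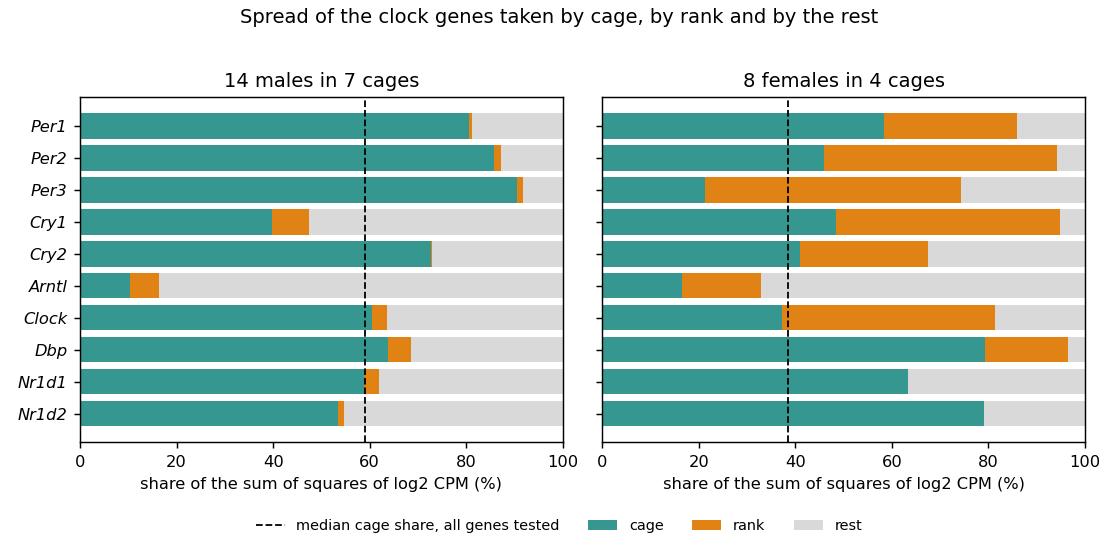
Share of the sum of squares of log2 CPM taken by cage (teal), by rank (orange) and by the rest (grey) for the 10 members, in males (left) and females (right), on a horizontal axis in percent; the dashed line is the median cage share of all genes tested, 59.0% in males and 38.5% in females. In males Per1, Per2, Per3, Cry2, Dbp and Clock exceed the line, the Period genes by the most, and Arntl lies far below it.

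In females no member was called in the cage test, and 5 of 10 had an unadjusted p under 0.05. Of the 14865 genes tested, 11 (0.074%) were called by edgeR and 759 (5.11%) had an unadjusted p under 0.05; DESeq2 called 5 genes and 0 members, with 4 members and 95 genes in all (0.639%) at an unadjusted p under 0.05. Dbp had the highest F among the members (F = 11.7, adjusted p = 0.108 in the edgeR test). Dominant females had 46.0, 48.4, 36.9 and 41.0 CPM and submissive females 52.2, 49.9, 40.1 and 46.8 CPM of Dbp for replicates 1 to 4. Replicate 3 was lowest in both ranks, and the cage means ranged 1.28-fold, less than those of Per1 with 1.34-fold and Per2 with 1.31-fold. Submissive female 3 stood apart in 4 pituitary markers, which summed to 22.6 CPM there against 1.26 to 3.41 CPM in the other libraries; their part in the values of this cage was not tested. Without the filter on low counts Dbp, Per1 and Per2 were called, among 99 of 19834 genes. Leaving out 1 cage called 0 members each time, and between 2 genes in all (without replicate 3) and 31 (without replicate 2), with an F of Dbp from 3.42 (without replicate 3) to 15.8 (without replicate 4) and of Per2 from 1.87 (without replicate 1) to 11.4 (without replicate 3).

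Per1 had 27.7, 23.6, 30.8 and 36.2 CPM in dominant and 21.995, 23.9, 27.0 and 27.4 CPM in submissive females (F = 8.40, adjusted p = 0.370 in the edgeR cage test). Its cage means were highest in replicates 3 and 4, where Dbp was lowest. Per2 was highest in replicate 1, with 32.3 CPM in the dominant and 28.8 CPM in the submissive mouse, and its cage means ranged 1.31-fold (F = 7.70, adjusted p = 0.474 in the edgeR test). Nr1d2 had 225.0, 226.7, 200.01 and 192.2 CPM in dominant and 214.0, 217.8, 205.5 and 206.1 CPM in submissive females (adjusted p = 0.884 in the edgeR test). Replicates 1 and 2 did not overlap replicates 3 and 4 for Nr1d2 alone among the members, as for 2.87% of all genes tested. Per3 did not follow the male pattern, with cage means from 34.7 to 37.8 CPM, and the cage means of Arntl and Clock each ranged 1.04-fold.

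Genes to which neuronal activity, glucocorticoids and temperature are known to speak were read beside the members, because Per1 and Per2 share some of these inputs. Of 6 activity-induced genes 4 were called in the male cage test, against 5.89% of all genes tested. Fos, an immediate early transcription factor, had cage means of 14.1, 19.6, 22.9, 14.6, 9.71, 8.997 and 7.98 CPM for replicates 1 to 7 (F = 28.95, adjusted p = 0.000797 in the edgeR test). Arc, which acts at synapses, had 92.9, 110.0, 125.6, 74.2, 52.7, 52.8 and 51.0 CPM, and Nr4a1, an orphan nuclear receptor, 21.96, 24.5, 28.4, 22.2, 13.97, 12.2 and 12.6 CPM. The cage means of replicates 1 to 4 were above those of replicates 5 to 7 for these 3, as for 17.8% of all genes tested. The fourth called gene, Egr1 (adjusted p = 0.0464 in the edgeR test), did not separate in this way, with cage means of 51.5, 59.6, 56.7, 42.99, 43.7, 29.4 and 38.3 CPM. Of 4 temperature-responsive genes Cirbp, which encodes a cold-inducible RNA-binding protein, was called (adjusted p = 0.0316 in the edgeR test), with 54.5 ± 5.46 CPM (SD, n = 8) in replicates 1 to 4 and 64.5 ± 4.30 CPM (SD, n = 6) in replicates 5 to 7. Of 8 glucocorticoid-induced genes none was called by edgeR in male cages, and 1 had an unadjusted p under 0.05, against 22.3% of all genes tested.

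In females Fos, Arc and Nr4a1 were also called in the cage test, against 0.074% of all genes tested. They were highest in replicate 3, where Dbp was lowest. Fos had 27.4 and 22.1 CPM in the dominant and submissive mouse of that cage, against 9.59 to 15.04 CPM in the other 6 females. Arc had 160.5 and 109.0 CPM there, against 62.0 to 94.1 CPM in the others. None of the 4 temperature-responsive genes and none of the 8 glucocorticoid-induced genes was called by edgeR in female cages. At an unadjusted p under 0.05 there were 2 and 5 of them, against 5.11% of all genes tested. The cage mean of Per2 was highest in replicate 1 and that of Per1 in replicate 4, while those of Cry1, Arntl and Clock were highest in replicate 3, at 33.0, 51.7 and 261.8 CPM. The part of the activity-induced genes in the cage differences of the members was not tested.

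**Figure D4:**
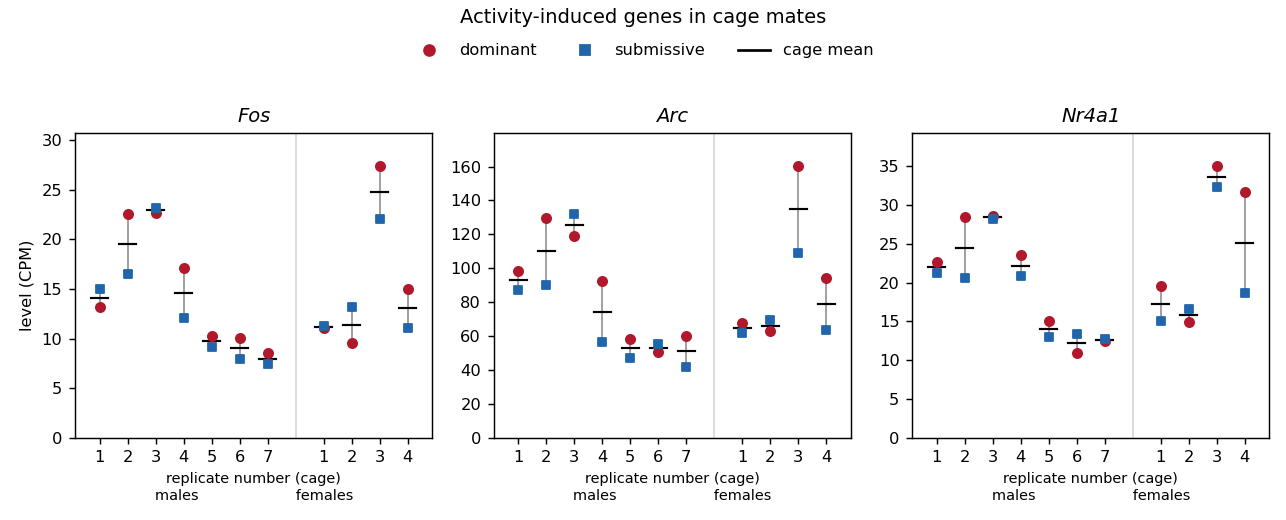
Levels of the activity-induced genes Fos, Arc and Nr4a1 in CPM (vertical axes from 0) for each mouse by replicate number, males on the left and females on the right of each panel; circles are dominant mice, squares submissive mice and black bars cage means. Male replicates 1 to 4 have higher cage means than replicates 5 to 7, and female replicate 3 stands highest.

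Of 20 further genes of the clock and its outputs, all passed the filter and 1 was called in the male cage test, a share near the 5.89% of all genes. Arntl2, a relative of Arntl, had cage means of 10.3, 9.36, 10.1, 10.7, 7.40, 7.36 and 7.79 CPM (F = 6.16, adjusted p = 0.0480 in the edgeR test), with replicates 1 to 4 above replicates 5 to 7. The other 19 did not pass, among them Tef, a relative of Dbp that binds the same motif (adjusted p = 0.635), Bhlhe40, a repressor of Clock and Arntl (0.455), Ciart (0.464), Nfil3, which competes with Dbp for D-boxes (0.919), and Npas2, which can stand in for Clock (0.446). Bhlhe41 (0.110) and Rorb (0.162) had an unadjusted p under 0.05. In female cages 0 of the 20 were called by edgeR and 1 had an unadjusted p under 0.05, against 5.11% of all genes tested.

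Rank was the question of the study, and no member passed the test of rank in males. The 10 members included 0 called genes in edgeR's quasi-likelihood test, 0 at an unadjusted p under 0.05 and 0 by DESeq2, where 0 of all genes tested (0%) were called by edgeR and 1.32% had an unadjusted p under 0.05. The log2 fold change of dominant relative to submissive males was 0.06 for Per1 (95% interval -0.21 to 0.32), -0.09 for Per2 (-0.40 to 0.23) and -0.04 for Per3 (-0.27 to 0.19). It was -0.09 for Cry1 (-0.27 to 0.09), and the other 6 lay between -0.04 for Nr1d1 and 0.04 for Dbp. The interval was narrowest for Clock (-0.10 to 0.06) and widest for Per2. These fits had rank as the only term, so their intervals also take in the spread between cages. Within cages, Per1 was higher in the dominant male in 3 of 7 cages, Per2 in 2 of 7 and Per3 in 3 of 7. Without dominant male 1 the difference of Cry1 was -0.02 and that of Nr1d2 0.060, against 0.026 with it, and over leaving out each mouse in turn that of Nr1d2 was 0.0049 (without dominant male 2) to 0.060. With cage as a term the interval of Per3 narrowed to -0.15 to 0.06.

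In females 4 members, Per1, Per2, Per3 and Cry1, were higher in dominant mice at an unadjusted p under 0.05 and none passed the adjustment. Of all genes tested 6.43% were higher in dominant females at that unadjusted threshold, and 14 (0.0942%) passed the adjustment in edgeR. DESeq2 called 0 members and 77 genes in all, with 3 members and 1022 genes (6.88%) at an unadjusted p under 0.05, and gave no adjusted p for Per1, Per2, Per3, Cry1 and Nr1d1. The median log2 fold change was 0.05 over the 10 members and -0.002 over all genes tested. Values of other lists in the same libraries are given beside this. The 6 activity-induced genes were all higher in dominant females, 1 at an unadjusted p under 0.05, with a median log2 fold change of 0.28. Of the 8 glucocorticoid-induced genes 7 were lower, 1 at an unadjusted p under 0.05, and of the 4 temperature-responsive genes 2 were lower, both at an unadjusted p under 0.05; none of these genes was called by edgeR without cage as a term. With cage as a term Cirbp and Rbm3, both temperature-responsive, were called as lower in dominant females (adjusted p = 0.0360 and 0.0445 in the edgeR test) and Egr1, an activity-induced gene, as higher (adjusted p = 0.0367 in the edgeR test). The 3 blood markers, of which 1 was detected and 2 were at 0 in each library, summed to 3.86 to 5.99 CPM in dominant and 2.56 to 3.78 CPM in submissive females. The part of any of these in the differences of the members was not tested.

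Per2 had the largest difference, with 32.3, 27.3, 30.7 and 25.6 CPM in dominant and 28.8, 21.8, 22.4 and 21.3 CPM in submissive females for replicates 1 to 4. It was higher in the dominant mouse of each of the 4 cages, while the ranges of the ranks overlapped. The log2 fold change was 0.29 (standard error 0.0878, 95% interval 0.11 to 0.47, adjusted p = 0.204 in edgeR's quasi-likelihood test). With cage as a term it was 0.29 (standard error 0.0618, adjusted p = 0.0538 in the edgeR test), where 36 genes (0.242%) were called. Cry1 had 34.5, 29.7, 34.4 and 32.8 CPM in dominant and 30.5, 27.9, 31.6 and 28.1 CPM in submissive females. It was also higher in the dominant mouse in 4 of 4 cages, by 0.15 on the log2 scale (95% interval 0.02 to 0.27, adjusted p = 0.392 in the edgeR test). Per1 differed by 0.23 (0.02 to 0.43) and Per3 by 0.15 (0.03 to 0.27), each higher in the dominant mouse in 3 of 4 cages. Leaving out 1 mouse moved the difference of Per1 to between 0.12 (without dominant female 4) and 0.32 (without dominant female 2).

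Dbp lay the other way and was lower in the dominant female of each of the 4 cages, with a log2 fold change of -0.14 (95% interval -0.30 to 0.02, adjusted p = 0.563 in the edgeR test). Leaving out 1 mouse moved it to between -0.21 (without submissive female 3) and -0.07 (without dominant female 3). With cage as a term it was -0.14 (95% interval -0.24 to -0.04, adjusted p = 0.277 in the edgeR test), and 5 members, Per1, Per2, Per3, Cry1 and Dbp, then had an unadjusted p under 0.05, against 10.3% of all genes tested. Clock was higher in dominant females in 4 of 4 cages, by 0.03 (-0.03 to 0.09), and was the 1 member whose ranks did not overlap, with a lowest dominant value of 256.5 CPM and a highest submissive value of 256.3 CPM; 5.46% of all genes tested did not overlap between ranks in females. Arntl, Nr1d1 and Nr1d2 had log2 fold changes of 0.03, -0.01 and -0.005. Of the 20 further clock genes 0 were called by edgeR and 2 had an unadjusted p under 0.05, both higher in dominant females, a share near the 10.5% of all genes tested at that threshold in either direction. They were Rorb, a nuclear receptor that activates Arntl, with 86.6, 86.3, 85.2 and 91.5 CPM in dominant and 76.0, 75.1, 76.7 and 78.9 CPM in submissive females (adjusted p = 0.0697 in the edgeR test), and Hlf, a relative of Dbp (adjusted p = 0.417). With the trend of counts on exon length removed from each library, the log2 fold change was 0.26 for Per2 and 0.12 for Per3, and that of Clock turned from 0.03 to -0.028.

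Over the 11 cage pairs, with cage as a term, rank again gave 0 called members in edgeR, 0 at an unadjusted p under 0.05 and 0 by DESeq2; 0 genes (0%) were called in all and 2.78% had an unadjusted p under 0.05. Per1 had the largest difference among the members, 0.12 (95% interval -0.003 to 0.24), followed by Per2 with 0.07 (-0.07 to 0.21). Leaving out 1 pair moved the difference of Per2 to between 0.03 (without female replicate 3) and 0.12 (without male replicate 3). The intervals of the other 8 members all lay between -0.12 and 0.13. Of the 6 activity-induced genes 0 were called by edgeR in this comparison, 5 had an unadjusted p under 0.05 and all 6 were higher in dominant mice, with a median log2 fold change of 0.18. Whether rank acted differently in females and males was tested as an interaction, in which sex and the prefix of the library names coincide. It gave 0 called members in edgeR, 0 at an unadjusted p under 0.05 and 0 by DESeq2; 0 genes (0%) were called in all and 3.32% had an unadjusted p under 0.05. The difference between females and males was 0.38 for Per2 (95% interval -0.07 to 0.83) and 0.24 for Cry1 (-0.01 to 0.49). With cage as a term 0 members were called and 4 of 10 had an unadjusted p under 0.05, as had 6.9% of all genes tested. These were Per2 (0.38, 95% interval 0.16 to 0.60), Per3 (0.21, 0.04 to 0.37), Cry1 (0.25, 0.01 to 0.48) and Dbp (-0.17, -0.32 to -0.03), with adjusted p of 0.712 to 0.719 in the edgeR test.

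**Figure D5:**
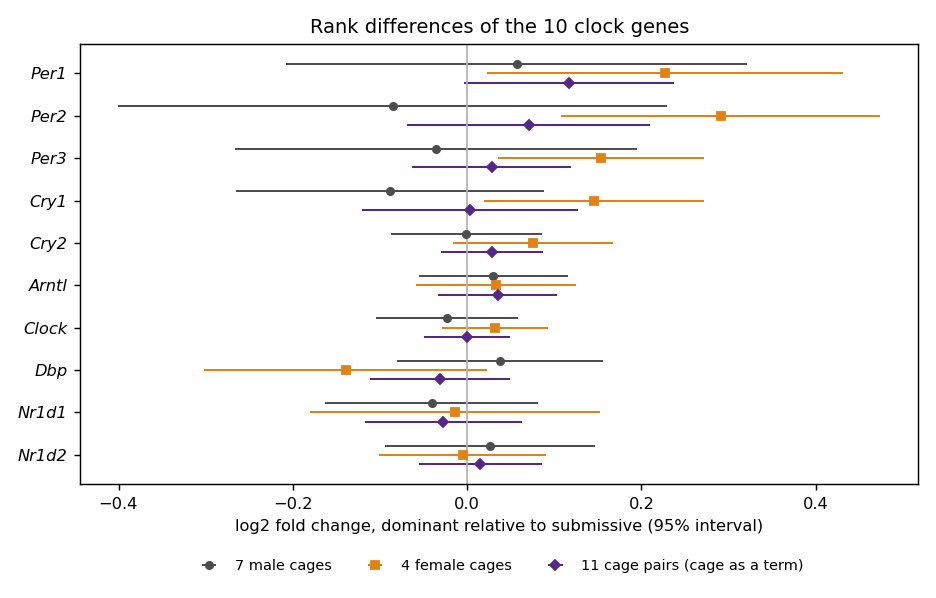
Log2 fold change of dominant relative to submissive mice (horizontal axis) with its 95% interval for the 10 members, in 7 male cages (circles), 4 female cages (squares) and over 11 cage pairs with cage as a term (diamonds). Circles and squares are fits with rank as the only term. In females the intervals of Per1, Per2, Per3 and Cry1 lie above 0, and in males and over the 11 pairs the interval of every member crosses 0.

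The ratio of Dbp to Arntl counts, an output gene against a gene of the opposite phase, was computed in each library as a description. Its log2 value had a median of -0.77 in males, from -0.96 to -0.51, and a median of -0.10 in females, from -0.57 to 0.04. The range of the males lay below that of the females but for a small overlap. In female replicate 3 it was -0.57 and -0.28 in the dominant and submissive mouse, the lowest of each rank. The genes most like Arntl over the 14 males outside the members were Kcnk4 (Pearson's r of log2 CPM 0.82), Rnf138rt1 and 3830406C13Rik, and over the 8 females their r was 0.42, 0.14 and 0.22. For Dbp they were Arl1, Id2 and Yeats4, each with r = 0.86 in males, and 0.54, 0.10 and 0.30 in females. The most opposite to Dbp was Oprm1, with r = -0.87 in males and 0.42 in females. These values were picked as extremes over all genes tested in males, the mice of a cage share their cage, and no test applies to them.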

How the data were processed

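Right brain hemispheres of 22 mice were used. Per the labels, libraries were stranded total RNA after removal of ribosomal RNA. The authors used FastQC 0.11.8 for read quality, cutadapt 1.15 with bbduk for trimming, STAR 2.6.0a for alignment (mm10) and featureCounts 1.6.2 with iGenomes gene models for counting. They deposited raw counts per gene, not normalized. The strand setting and the handling of multiply mapped reads are not given in the sources used here.

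CPM were computed with TMM factors in edgeR 4.0.16 (R 4.3.3), and log2 CPM with a prior count of 2. Loci and exon lengths were those deposited with the counts (mm10), and all 10 members matched. The filter on low values (filterByExpr, count 10, total 15) left 14737 genes in males, 14865 in females and 15233 over all mice. The test was edgeR's quasi-likelihood F test at an adjusted p (Benjamini-Hochberg) of 0.05. Rank was the only term within each sex. Cage was tested beside rank within each sex. The 11 cage pairs were fitted with cage and rank, and the interaction with a mean per group. Intervals use the t distribution of the fit. Marker and gene lists are given as counts. The scripts were tested on simulated data.

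Cage numbers in the library names pair the mice, and the study states that cage mates were killed together. Deviations of mates from their group means correlated across genes at a mean of 0.177 in males (lowest -0.0345) and 0.0239 in females (lowest -0.0260), against -0.0293 and -0.00796 for other pairs. Libraries are mice; all 54 pairs within groups differed beyond sampling noise (mean chi-square per gene 1.80 to 16.1). A count of 0 allows up to 3 counts, and such floors cover counting error only. The 27 date-like gene labels were kept.

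The members and lists were chosen with earlier results of these data known. The text names all members, the listed further clock genes that were called with up to 8 others, the listed activity, glucocorticoid and temperature genes called together with a member, and the genes most like Dbp and Arntl. Alternatives were DESeq2 1.42.0, its size factors, no filter, a robust prior, cage as a block, removal of each library's loess trend on exon length (span 0.3), 1 fit over all mice, subsets of the cages, a prior count of 0.5 for log2 CPM and leaving out mice or cages; leaving out dominant male 1 from the male cage test was added after seeing the data.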

Additional observations from a re-analysis of the deposited data

Results flagged for a closer look

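Each member was examined for a single mouse that stood apart within each of the 4 groups, 40 groups in all, and 1 passed Dixon's criterion. Per2 in submissive female 1 had 28.8 CPM, against 22.4 CPM in the next highest of the 4 submissive females. Chance flags about 1 in 20 groups. Its cage mate, dominant female 1, also had the highest Per2 of its group, with 32.3 CPM.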

How the results depend on the processing

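No alternative gave a called member for rank in males, in females, over the 11 pairs or in the interaction. For rank in females DESeq2 gave no adjusted p for Per1, Per2, Per3, Cry1 and Nr1d1, so it could not call these members. Using the cage as a replicate block changed no call of a member: in females it gave 0 members, while all called genes rose from 14 to 36, and in the interaction it gave 0 members. In females DESeq2 called 77 genes, no filter 84, and replicates 3 and 4 only 120, all mice in 1 fit 0, the length trend removed 0 and 8 with the block too, replicates 1 and 2 only 5, and leaving out 1 mouse 0 to 77, with 0 members each. In the male cage test 3 members were called with DESeq2, its size factors, no filter, the robust prior, cage as the only term and without dominant male 1, and 2 (Per2 and Per3) with the length trend removed. They were 0 in replicates 1 to 4 only and 0 in replicates 5 to 7 only, and leaving out 1 cage gave 1 to 3. Called genes in all were 868 in the main test and 1841 without replicate 1, 482 without 3, 474 without 5, 375 without 6 and 423 without 7. DESeq2 called 962, its size factors 871, no filter 1196, the robust prior 1152 and cage as the only term 1144. With the length trend removed 536 genes were called. In the female cage test no filter gave 3 members.

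Small rank differences changed sign, none of them called. In males, Cry2 was 0.00014 with all mice in 1 fit, 0.0070 with the length trend removed, 0.0054 with block and trend and 0.031 in replicates 1 to 4 only. Clock was 0.012 with the trend removed and 0.010 with block and trend. In replicates 1 to 4 only, Per3 was 0.030, Arntl -0.015 and Nr1d1 0.041, and in replicates 5 to 7 only Dbp was -0.063. In females, Nr1d2 was 0.0013 with all mice in 1 fit and 0.065 in replicates 1 and 2 only, Clock -0.028 with the trend removed, with or without the block, Arntl -0.022 in replicates 1 and 2 only and Nr1d1 0.13 in replicates 3 and 4 only. Over the 11 pairs, Cry1 was -0.0026 with DESeq2 and Clock 0.00013 with no replicate block. Leaving out 1 mouse in males gave -0.017 to 0.14 for Per1, -0.19 to 0.0020 for Per2, -0.095 to 0.025 for Per3 and -0.024 to 0.027 for Cry2, and in females -0.10 to 0.033 for Nr1d1 and -0.044 to 0.038 for Nr1d2. Leaving out 1 cage pair gave -0.020 to 0.067 for Cry1, -0.0081 to 0.015 for Clock and -0.0097 to 0.042 for Nr1d2. The causes were not tested. In females Per2 was 0.23 to 0.40 over all alternatives, with an adjusted p of 0.0538 to 0.995. With 2 mice per cage, cage tests within subsets of cages have little power.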
